A study of Mus musculus with 16 samples.

Results

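The hypothalamus is the brain region that senses nutrients and hormones such as leptin and sets food intake and energy expenditure. In its arcuate nucleus, neurons that make Agrp and Npy drive feeding and neurons that make Pomc and Cartpt restrain it, while Hcrt and Pmch neurons of the lateral hypothalamus promote arousal and feeding. Fat-rich diets are widely used to make mice obese, and their known readouts in this tissue include leptin signalling, inflammatory genes and genes of lipid handling.

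The comparison set 60% against 20% of energy from fat in C57BL/6N mice, an inbred laboratory strain, at the upper 2 protein levels of the study, 5% and 20% of energy. It takes 8 of the 16 RNA-seq libraries of the series, taken by their diet labels. The 4 libraries at 60% fat comprised 2 with 5% protein and 2 with 20% protein. The 4 libraries at 20% fat were likewise 2 with 5% protein and 2 with 20% protein. The other 8 libraries had 60% or 20% fat with 1% or 2.5% protein and are used here only to set the same contrast beside it. At a fixed protein level, more energy from fat means less from the remaining source, and the effects of these cannot be told apart. The sources used here give no age, sex or time on the diet. The Y-linked gene Eif2s3y had 313 to 537 counts in each of the 8 libraries, so each held RNA of male mice. They also do not state that both libraries of a diet are from different mice. P-values and intervals thus speak only for the variation among these libraries, part of which may be technical. The study's stated theme was protein intake, and fat entered its models as the second dietary factor.

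Total counts were alike, at 18357372 to 18428442 per library at 60% fat and 17731242 to 18427842 at 20% fat. Genes of the mitochondrial genome took 2.43 to 2.80% of counts at 60% fat and 2.19 to 3.10% at 20% fat. Of 47069 genes in the table, 16325 had enough counts to be tested. Markers of hypothalamic nuclei were present in every library, with summed levels of 984 to 1106 CPM (counts scaled to library size with TMM factors) at 60% fat and 1025 to 1150 CPM at 20% fat. Some abundant brain genes were nevertheless listed at 0 in all 8 libraries. Gfap, the classical marker of astrocytes, was one of them, although its fellow astrocyte marker Slc1a3 had 9461 to 10655 counts. In all, 33 of 874 genes on the 42 lists used here were at 0 throughout, including B2m, the light chain of MHC class I, Cox4i1, a respiratory chain subunit, Map1lc3b of autophagosomes and P2ry12 of microglia. For these genes the comparison has no measurement. Some other genes had low counts without being at 0. Gapdh had 209 to 270 counts and Uqcrc1 1 to 193, against 12860 to 14550 for Actb. Whether such genes were fully counted was not tested.

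At these protein levels almost no gene differed between the fat levels past the threshold. The edgeR quasi-likelihood test, with protein level as a covariate and Benjamini-Hochberg adjustment at 0.05, called 0 genes higher and 1 gene lower at 60% fat, 0.00613% of those tested. At an unadjusted p under 0.05 stood 316 genes, 1.94% of those tested, of which 101 were higher and 215 lower at 60% fat. With no difference at all, a share of 0.05 would lie there by chance, so 1.94% was no excess. All 4 libraries at 60% fat lay above all 4 at 20% fat for 132 genes (0.809%) and below them for 151 genes (0.925%). DESeq2 and limma-voom, fitted to the same libraries, called 0 genes. The median log2 change over all genes tested was 0.0020. For comparison, the protein coefficient of the same fit, 5% against 20% protein, had 687 genes (4.21%) at an unadjusted p under 0.05. It called 2 genes higher and 1 lower.

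The libraries did not sort by fat. The root mean square difference in log2 CPM over genes between 2 libraries of the same protein level and different fat was 0.27 to 0.33, with a median of 0.29 over 8 pairs. Libraries on the very same diet differed by 0.28 to 0.35, with a median of 0.30 over 4 pairs. Libraries that differed in fat were thus no farther apart by this measure than replicates of a diet. The median was 0.30 for pairs that differed in protein alone and 0.30 for pairs that differed in both. The measure takes in all tested genes alike, so it cannot show a fat effect limited to some of them.

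**Figure D1:**
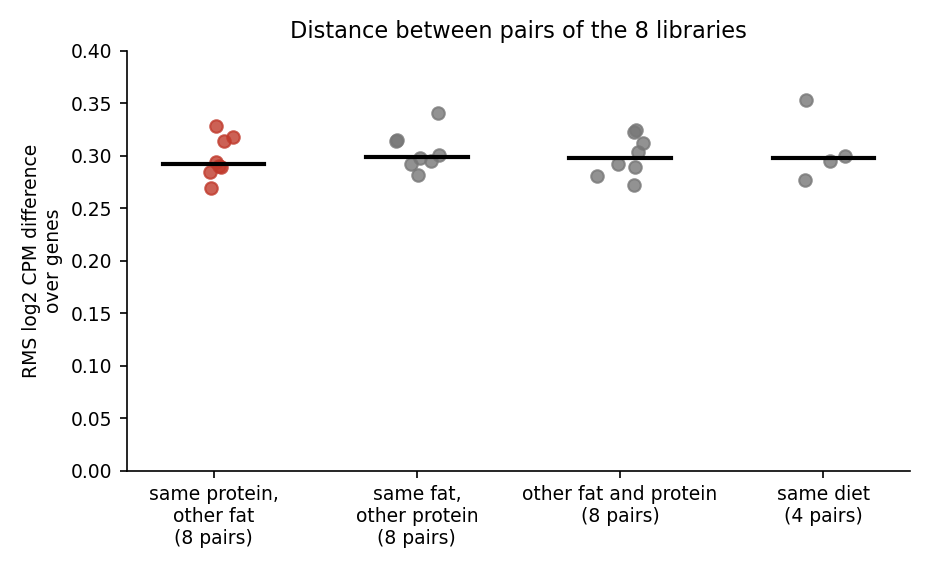
Root mean square difference in log2 CPM over all tested genes for every pair among the 8 libraries (y axis), by what the pair shares (x axis); points are pairs and bars are medians. Pairs that differ in fat alone (red) span 0.27 to 0.33, within the 0.28 to 0.35 of pairs on the same diet or just below it.

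The intervals show how large a fat effect could still be, given the variation among these libraries. If part of that variation is technical only, they are too narrow for differences between mice. The 95% interval of the log2 change lay within a 1.25-fold change either way for 10482 genes (64.2%), within 1.5-fold for 13653 genes (83.6%) and within 2-fold for 15656 genes (95.9%). Precision followed expression level. The median half-width of the interval was 0.69 on the log2 scale for 1536 genes under 1 CPM, 0.34 for 4417 genes at 1 to 10 CPM, 0.15 for 7911 genes at 10 to 100 CPM and 0.12 for 2461 genes over 100 CPM. Among genes over 100 CPM the largest estimated change was 0.19. The interval lay within 1.5-fold for 39 genes under 1 CPM, 3263 at 1 to 10 CPM, 7891 at 10 to 100 CPM and 2460 over 100 CPM. A 1.5-fold change was thus not excluded for most genes under 1 CPM at this depth, while it was for most genes over 10 CPM.

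**Figure D2:**
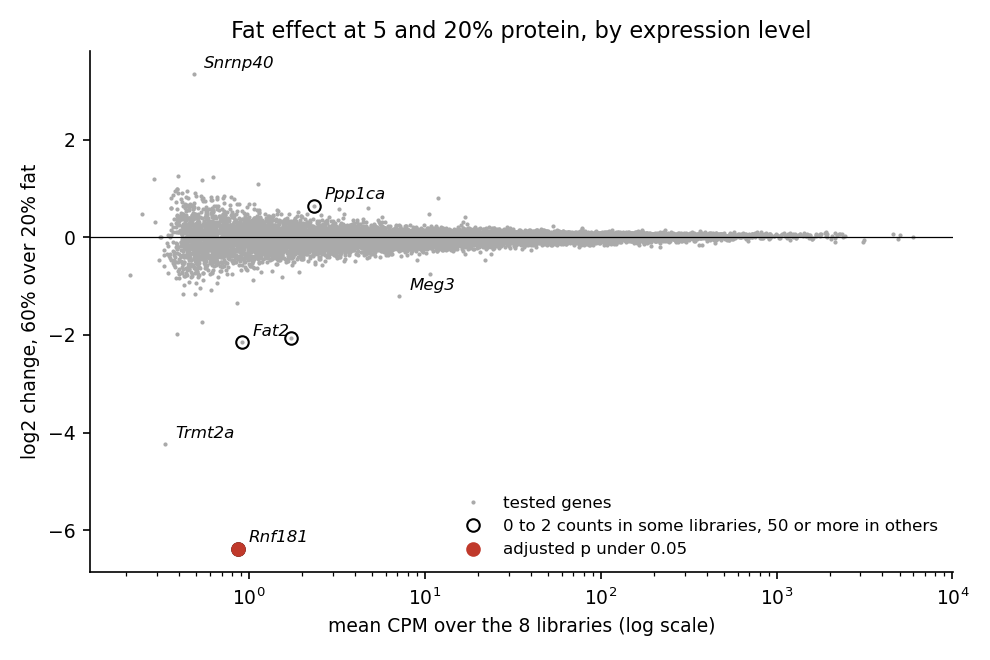
Log2 change at 60% over 20% fat (y axis) against the mean CPM of the 8 libraries (x axis, log scale) for the 16325 tested genes; red marks the gene with an adjusted p under 0.05 and open circles mark tested genes with 2 or fewer counts in some libraries and 50 or more in others. The cloud narrows towards 0 with rising level, and the outlying genes sit at low counts.

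The single called gene was Rnf181 (ENSMUSG00000055850), which encodes a RING finger ubiquitin ligase. It averages under 1 CPM and is named because it was the only call. Its counts at 60% fat were 0 and 1 with 5% protein and 0 and 0 with 20% protein, and at 20% fat they were 0 and 0 with 5% protein and 66 and 62 with 20% protein. The reads thus came from the 2 libraries on 20% fat with 20% protein, and the fat groups overlapped at 0. The fitted log2 change was -6.38 ± 0.74 (SE) with an edgeR adjusted p of 0.020. Summed over libraries, 1 count at 60% fat stood against 128 at 20% fat, a ratio of 0.00775 with an exact 95% interval of 0.000195 to 0.0440 that covers counting error only. The 8 libraries at lower protein held 2 counts together, with no more than 1 in any.

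Rnf181 lies at chr6:72359714-72366956 on the minus strand of GRCm38, and its span overlaps the end of Tmem150a. Rnf181 has 7 protein-coding neighbours within 60 kb, among them Usp39 and the vesicle protein genes Vamp5 and Vamp8. These neighbours had 2 or fewer counts in each of the 8 libraries, and 5 of them had 0. The same happened around Gfap at chr11:102887336-102900912, where Ccdc103, Fam187a, Kif18b and C1ql1 were also at 0, while Eftud2 beside them had 1705 to 1950 counts. Whether the empty stretch bears on the Rnf181 counts was not tested. The call also depended on single libraries. It was lost without replicate 1 of 60% fat with 5% protein (edgeR adjusted p = 0.079), without replicate 1 or 2 of 60% fat with 20% protein (0.73 and 0.92) and without replicate 1 or 2 of 20% fat with 20% protein (0.11 and 0.17). It was also lost with limma-voom, with DESeq2 and in a fit of all 16 libraries (adjusted p = 1.0 in each).

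Other genes also switched between near 0 and 50 or more counts. Ppp1ca, a catalytic subunit of protein phosphatase 1, had 0 and 0 counts at 60% fat with 5% protein and 119 and 103 with 20% protein, against 118 and 2 at 20% fat with 5% protein and 1 and 0 with 20% protein. Uqcrc1, a core subunit of the respiratory chain, had 1 to 5 counts at 60% fat, against 193 and 2 at 20% fat with 5% protein and 3 and 4 with 20% protein. Tango2 had 0 to 2 counts at 60% fat and, at 20% fat, 0 and 1 with 5% protein and 0 and 50 with 20% protein. In all, 6 genes had 2 or fewer counts in some of the 8 libraries and 50 or more in others. Among them Rnf181 was the one with 50 or more counts in both libraries of a single diet and nowhere else. Fat2 came close, with 60 and 37 counts at 20% fat with 20% protein, the same diet, and 2 to 11 in the other libraries. These genes were picked out after their values were seen.

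**Figure D3:**
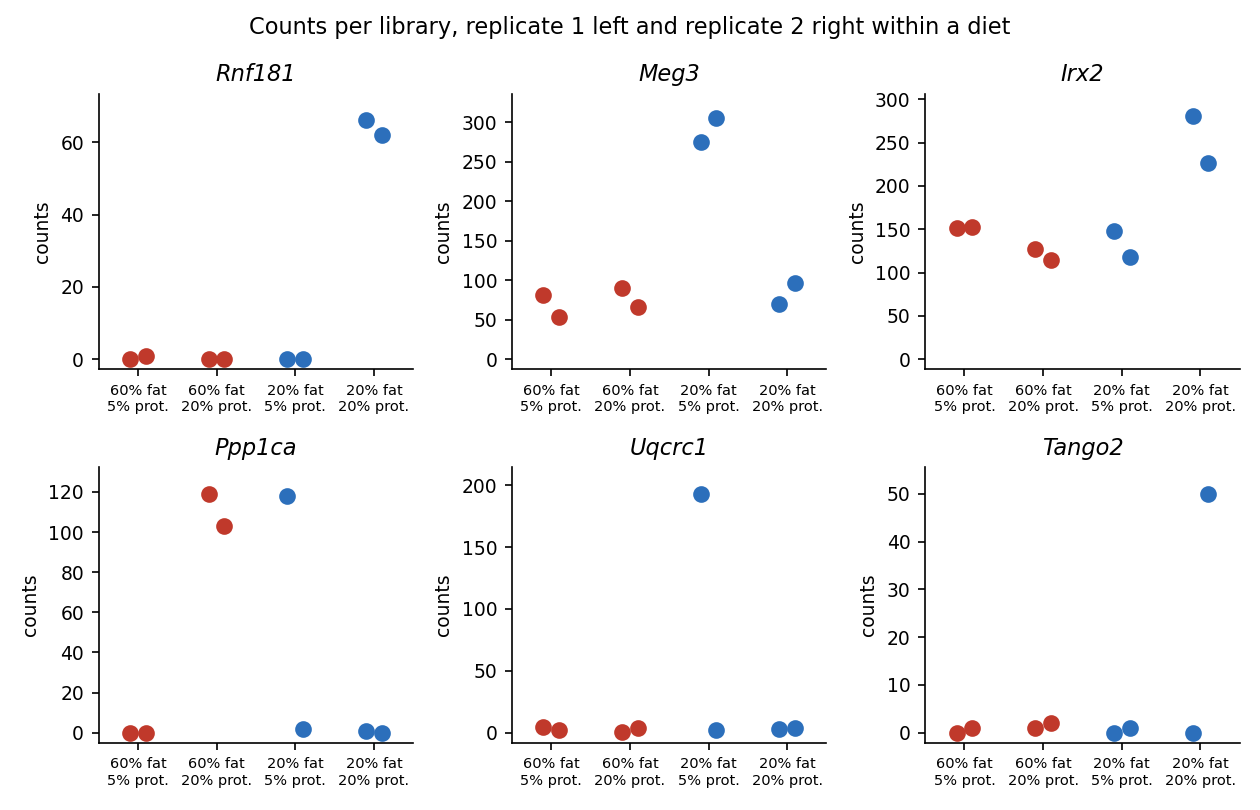
Raw counts (y axis) of 6 genes in each of the 8 libraries, by diet (x axis), with 60% fat in red and 20% fat in blue and replicate 1 left of replicate 2. Rnf181, Meg3 and Irx2 are high in both libraries of a single 20% fat diet, while Ppp1ca, Uqcrc1 and Tango2 differ between replicates of at least 1 diet.

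Taking each protein level alone, 2 libraries against 2, added 1 gene. At 5% protein the edgeR test called 0 genes higher and 1 lower (0.00613%), with 377 genes at an unadjusted p under 0.05. The call was Meg3 (ENSMUSG00000021268), an imprinted maternally expressed long non-coding RNA at chr12:109541001-109571726. Its span overlaps 5 other annotated genes, 0 of them protein-coding, so its level is uncertain. Meg3 had 81 and 53 counts at 60% fat with 5% protein, against 275 and 305 at 20% fat with 5% protein, a log2 change of -2.12 ± 0.22 (SE) with an adjusted p of 0.011. At 20% protein it had 90 and 66 counts at 60% fat and 70 and 97 at 20% fat, where the fat groups overlapped. The step was thus seen at 5% protein, and the difference of the fat effect between protein levels was -2.03 ± 0.32, with an adjusted p of 0.84. Among libraries outside the comparison, replicate 1 of 20% fat with 2.5% protein had 274 counts of Meg3 and replicate 2 of that diet had 75. The 5% protein call was lost without replicate 2 of 60% fat with 5% protein and kept when any other of the 8 libraries was left out.

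At 20% protein the edgeR test again called 0 genes higher and 1 lower (0.00613%), Rnf181, with 228 genes at an unadjusted p under 0.05. Both libraries on 60% fat had 0 counts of it, so with a floor of 3 counts over the group it was at least 42.6-fold lower at 60% fat. DESeq2 called 2 further genes lower there, chosen for mention after their values were seen. Irx2, an Iroquois homeobox factor, had 127 and 114 counts at 60% fat and 281 and 226 at 20% fat with 20% protein, with log2 -1.06 ± 0.16 (SE) and an edgeR adjusted p of 0.23. Spp1, the secreted phosphoprotein osteopontin, had 344 and 287 counts at 60% fat and 745 and 462 at 20% fat with 20% protein, with log2 -0.93 ± 0.20 and an edgeR adjusted p of 1.0. At 5% protein Irx2 had 8.31 and 8.39 CPM at 60% fat, both above the 8.08 and 6.57 CPM at 20% fat, with log2 0.19 ± 0.16 (adjusted p = 1.0), an estimate of the opposite sign to that at 20% protein. Spp1 overlapped there, with log2 0.04 ± 0.21.

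The test of whether the fat effect differed between 5% and 20% protein called 0 genes (0%), with 338 at an unadjusted p under 0.05 and a smallest adjusted p of 0.84. DESeq2 called 1 gene, Meg3. Of the 25 appetite, lipid and glial genes named whatever their values, Plin4 and Ttr had the widest split. Plin4, a perilipin that coats lipid droplets, had 35.9 and 56.0 CPM at 60% fat with 5% protein and 13.8 and 13.3 CPM with 20% protein, against 25.6 and 34.9 CPM at 20% fat with 5% protein and 17.4 and 25.7 CPM with 20% protein. Its fat effect was 0.60 ± 0.21 at 5% protein and -0.67 ± 0.24 at 20% protein, and the difference of 1.28 ± 0.32 had an unadjusted p of 0.0020 and did not pass adjustment. The span of Plin4 overlaps the coding gene Hdgfl2. Ttr, the thyroid hormone carrier made by choroid plexus, had 3.41 and 6.47 CPM at 60% fat with 5% protein and 15.2 and 4.87 CPM with 20% protein, against 29.7 and 13.3 CPM at 20% fat with 5% protein and 7.08 and 5.43 CPM with 20% protein. Its fat effect was -2.12 ± 0.48 at 5% protein and 0.68 ± 0.49 at 20% protein, and the difference of -2.80 ± 0.69 (unadjusted p = 0.0017) did not pass adjustment. Replicates of a diet were far apart for Ttr in 3 of the 4 diets.

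No appetite peptide passed the test for fat. Among orexigenic peptides, 0 of 12 tested members passed the edgeR test and the median log2 change was -0.03, against 0.0020 for all genes tested. Npy, the orexigenic peptide of Agrp neurons, had 26.7, 20.1, 15.3 and 21.5 CPM at 60% fat and 24.8, 25.4, 19.1 and 13.7 CPM at 20% fat, in the order 5%, 5%, 20% and 20% protein. The groups covered the same range, with a log2 change of 0.02 and a 95% interval of -0.26 to 0.31. Agrp, the melanocortin antagonist of the same neurons, averaged 4.89 ± 0.70 CPM at 60% fat and 5.18 ± 0.70 CPM at 20% fat (SD, n = 4 each), a log2 change of -0.09 with an interval of -0.36 to 0.19. The span counted for Agrp takes in parts of the coding genes Ctcf and Ripor1, so its level is uncertain.

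Hcrt, the precursor of the orexins, averaged 125 ± 6.4 CPM at 60% fat and 130 ± 12 CPM at 20% fat, and Pmch, the precursor of melanin-concentrating hormone, averaged 96.6 ± 5.1 CPM at 60% fat and 101 ± 7.5 CPM at 20% fat (SD, n = 4 each). Both were closely bounded, with log2 intervals of -0.21 to 0.08 for Hcrt and -0.18 to 0.05 for Pmch. A change of 1.25-fold in either direction lay outside both. The counted span of Pmch overlaps the coding gene Parpbp.

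Among anorexigenic peptides, 0 of 17 tested members passed and the median log2 change was 0.0082. Pomc, the precursor of the melanocortin agonist alpha-MSH, had 34.6, 40.3, 42.2 and 46.8 CPM at 60% fat and 45.4, 31.6, 58.8 and 43.5 CPM at 20% fat, in the same order of libraries. The lowest and the highest of the 8 values both belonged to 20% fat, and the log2 change was -0.12 with an interval of -0.38 to 0.13. Cartpt, its satiety partner peptide, averaged 91.4 ± 15 CPM at 60% fat and 84.1 ± 18 CPM at 20% fat, a log2 change of 0.11 with an interval of -0.18 to 0.41.

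The receptors and signalling genes that read leptin, insulin, ghrelin and melanocortins had no member past the threshold either. Of 30 tested members of leptin, insulin and melanocortin signalling, 0 passed, 16 had positive and 14 negative estimates, and the interval of all 30 lay within 1.5-fold. Lepr, the leptin receptor, had a log2 change of -0.09 with an interval of -0.47 to 0.28. Socs3, a feedback inhibitor that leptin signalling induces, had a log2 change of 0.07 with an interval of -0.23 to 0.38. The corresponding values were -0.14 (-0.41 to 0.13) for the ghrelin receptor gene Ghsr and -0.10 (-0.39 to 0.19) for the melanocortin receptor gene Mc4r. For Mtor, the nutrient-sensing kinase named in the study's title, the means were 174 ± 2.7 CPM at 60% fat and 171 ± 8.6 CPM at 20% fat, with an interval of -0.08 to 0.13. All 39 tested genes of mTOR complexes and their regulators had intervals within 1.5-fold.

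Of 32 appetite receptors tested, Glp1r had the smallest p. Glp1r, the receptor of glucagon-like peptide, had 2.04, 2.80, 2.28 and 2.79 CPM at 60% fat and 3.0, 3.06, 3.32 and 3.66 CPM at 20% fat. The groups did not overlap, with a log2 change of -0.40 ± 0.15 (SE), an unadjusted p of 0.020 and an edgeR adjusted p of 1.0. Such a separation downwards was found for 0.925% of all genes tested, and Glp1r was the 1 receptor among the 32 that showed it.

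**Figure D4:**
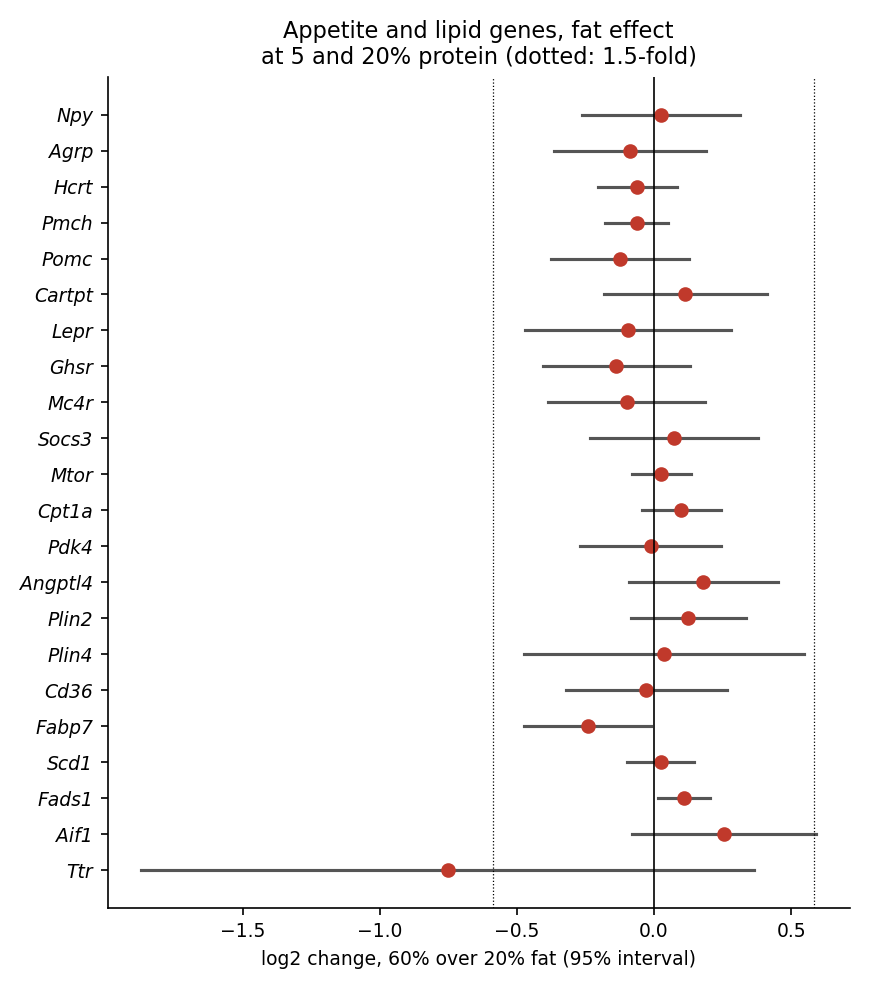
Estimated log2 change at 60% over 20% fat (points) with 95% intervals (lines) for appetite genes, lipid genes and markers, in the order peptides, receptors and signalling, lipid metabolism, Aif1 and Ttr; dotted lines mark a 1.5-fold change. Every interval but those of Aif1 and Ttr lies within the dotted lines.

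No gene of fatty acid handling passed the test for dietary fat. Of 33 tested genes of fatty acid oxidation and ketone metabolism, 0 passed the edgeR test and all 33 intervals lay within 1.5-fold, with a median log2 change of 0.02. Cpt1a, the gate of mitochondrial fatty acid entry, had 45.3, 45.9, 40.9 and 40.9 CPM at 60% fat and 48.4, 40.0, 36.6 and 36.6 CPM at 20% fat, a log2 change of 0.10 with an interval of -0.04 to 0.24. Pdk4, which restrains pyruvate oxidation when fat is burned, averaged 9.39 ± 1.2 CPM at 60% fat and 9.47 ± 1.1 CPM at 20% fat. Its groups overlapped, with a log2 interval of -0.27 to 0.25.

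Among 27 tested genes of fatty acid uptake, binding and lipid droplets, 0 passed, and the median was 0.02. Angptl4, a fasting-induced inhibitor of lipoprotein lipase, had 12.1 and 10.8 CPM at 60% fat with 5% protein and 6.36 and 7.33 CPM with 20% protein, against 12.2 and 8.18 CPM at 20% fat with 5% protein and 5.94 and 5.97 CPM with 20% protein. Its libraries separated by protein and not by fat: the 5% over 20% protein coefficient was 0.76 ± 0.13 (unadjusted p = 4.8e-05, adjusted p = 0.16), and the fat effect was 0.18 ± 0.13 (adjusted p = 1.0). Plin2, the ubiquitous lipid droplet coat protein, had a log2 change of 0.13 with an interval of -0.08 to 0.33, and the fatty acid translocase gene Cd36 had -0.03 with an interval of -0.32 to 0.27. Fabp7, the brain fatty acid binding protein of glial progenitors and astrocytes, averaged 17.4 ± 3.2 CPM at 60% fat and 20.5 ± 4.1 CPM at 20% fat, with a log2 change of -0.24 ± 0.11 (unadjusted p = 0.043, adjusted p = 1.0). The fat groups, both protein levels together, overlapped. At 20% protein Fabp7 had 20.2 and 19.8 CPM at 60% fat against 24.2 and 21.5 CPM at 20% fat, without overlap. At 5% protein it had 15.7 and 13.7 CPM at 60% fat against 14.7 and 21.5 CPM at 20% fat, with overlap.

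Genes of lipid synthesis had narrow intervals. Scd1, the stearoyl-CoA desaturase, averaged 351 ± 28 CPM at 60% fat and 346 ± 45 CPM at 20% fat, a log2 change of 0.02 with an interval of -0.10 to 0.15. Fads1, a desaturase of long polyunsaturated fatty acids, had 327, 338, 346 and 359 CPM at 60% fat and 315, 300, 330 and 323 CPM at 20% fat. The groups overlapped in 1 library each, and the estimate was 0.11 ± 0.04 (unadjusted p = 0.025, adjusted p = 1.0). Of 24 tested genes of cholesterol synthesis and SREBP2 targets, 19 had positive and 5 negative estimates with a median of 0.05, and 0 passed.

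Inflammatory and glial genes are often examined in the hypothalamus on fat-rich diets. Of 20 tested genes of inflammation and NF-kappa B, 0 passed, with 10 positive and 10 negative estimates, and of the other 11 listed genes, 8, Tnf and Il6 among them, had too few counts to be tested and 3, Ccl2, Cxcl10 and Myd88, were at 0 in all 8 libraries. Nfkb2, a subunit of the non-canonical pathway, had 5.34, 5.16, 5.38 and 5.25 CPM at 60% fat and 6.83, 5.90, 6.81 and 6.56 CPM at 20% fat. Its groups did not overlap, with log2 -0.30 ± 0.10 (unadjusted p = 0.011, adjusted p = 1.0). Serpina3n, an acute-phase protein of reactive astrocytes, averaged 59.5 ± 8.5 CPM at 60% fat and 54.0 ± 6.3 CPM at 20% fat, with log2 0.14 ± 0.06. Thus the 2 inflammation genes with an unadjusted p under 0.05 lay on opposite sides of 0.

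Of 18 tested markers of microglia and macrophages, 17 had positive estimates and 1 negative, with a median of 0.08, and 0 passed. Aif1, which encodes the microglial marker Iba1, had 3.30, 3.24, 3.42 and 3.06 CPM at 60% fat and 3.17, 2.78, 3.0 and 1.99 CPM at 20% fat. Csf1r, the receptor on which microglia depend, averaged 97.6 ± 3.9 CPM at 60% fat and 89.5 ± 5.8 CPM at 20% fat (SD, n = 4 each), with log2 0.12 ± 0.06 (unadjusted p = 0.049, adjusted p = 1.0). Both genes overlapped between groups, and so did the summed level of the list, 564 to 616 CPM at 60% fat and 516 to 595 CPM at 20% fat. In bulk tissue, more cells of a type and more RNA per cell cannot be told apart.

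In several lists most estimates had the same sign, without any member passing. Over all genes tested, 8332 estimates were positive and 7993 negative. Positive estimates were found for 31 of 33 ribosomal proteins (median 0.06), 25 of 28 nuclear-coded respiratory chain genes (0.05), 22 of 26 immediate early genes (0.06), 15 of 17 astrocyte markers (0.06) and 10 of 10 markers of oligodendrocyte precursors (0.05). Negative estimates were found for 12 of 12 striatal markers (median -0.11), 17 of 21 endothelial markers (-0.07), 17 of 23 hypothalamic markers (-0.06), 12 of 15 tanycyte and ependymal markers (-0.07) and 17 of 25 interferon response genes (-0.06). These sign counts were not tested, and genes of a list are not independent replicates. Some medians changed sign when a single library was left out. Without replicate 2 of 20% fat with 20% protein the ribosomal median was -0.0033 and the respiratory chain median -0.0038. This library also had the highest Spearman correlation of relative level with gene length, 0.32, against -0.23 to 0.21 in the others compared. Across the processing alternatives, removal of a gene length trend among them, the ribosomal median ran from 0.031 to 0.067. The respiratory chain median ran from 0.023 to 0.052. Without replicate 2 of 60% fat with 20% protein the immediate early median was -0.03.

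The striatal markers, typical of a neighbouring brain region, had a summed level of 671, 531, 544 and 664 CPM at 60% fat and 544, 895, 619 and 525 CPM at 20% fat. The highest value, 895 CPM, belonged to replicate 2 of 20% fat with 5% protein, which also had the lowest total count and the highest mitochondrial share. Without this library the striatal median was 0.12. It was 0.0023 when replicate 2 of 60% fat with 5% protein was left out. Summed marker levels overlapped between 60% and 20% fat for all 15 cell type lists.

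Blood cell genes had the list median farthest from 0. Of 16 blood cell genes, 8 were tested, 7 of them with positive estimates and a median of 0.37. Their intervals were wide, with a median half-width of 0.61 and 1 of 8 within 1.5-fold. An unadjusted p under 0.05 was found for 3 of the 8, against 1.94% of all genes tested. Hba-a2 and Hbb-bs, which encode haemoglobin chains, averaged 19.5 ± 3.6 and 12.2 ± 2.1 CPM at 60% fat and 14.5 ± 3.8 and 8.82 ± 2.6 CPM at 20% fat, and both overlapped. The haemoglobin genes have near-identical copies, so the split of reads between them is uncertain. Slc4a1, the anion exchanger of red cells, separated the groups at 0.44 to 0.65 CPM at 60% fat and 0.22 to 0.38 CPM at 20% fat, with an edgeR adjusted p of 1.0. Among endothelial markers, Tek, the angiopoietin receptor, averaged 13.0 ± 1.2 CPM at 60% fat and 15.8 ± 1.1 CPM at 20% fat, with log2 -0.28 ± 0.09 (unadjusted p = 0.0087, adjusted p = 1.0).

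Over all 42 lists, 800 distinct genes were tested and 0 passed. At an unadjusted p under 0.05 stood 16, 2.0% of them, against 1.94% of all genes, with 8 higher and 8 lower at 60% fat. Intervals lay within 1.5-fold for 730 of the 800. An estimate beyond 1.5-fold was found for 6 of the 800, against 160 of all 16325 genes tested. The 6 were Aqp1, Gh, Prl, S100a9, Slc4a1 and Ttr.

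**Figure D5:**
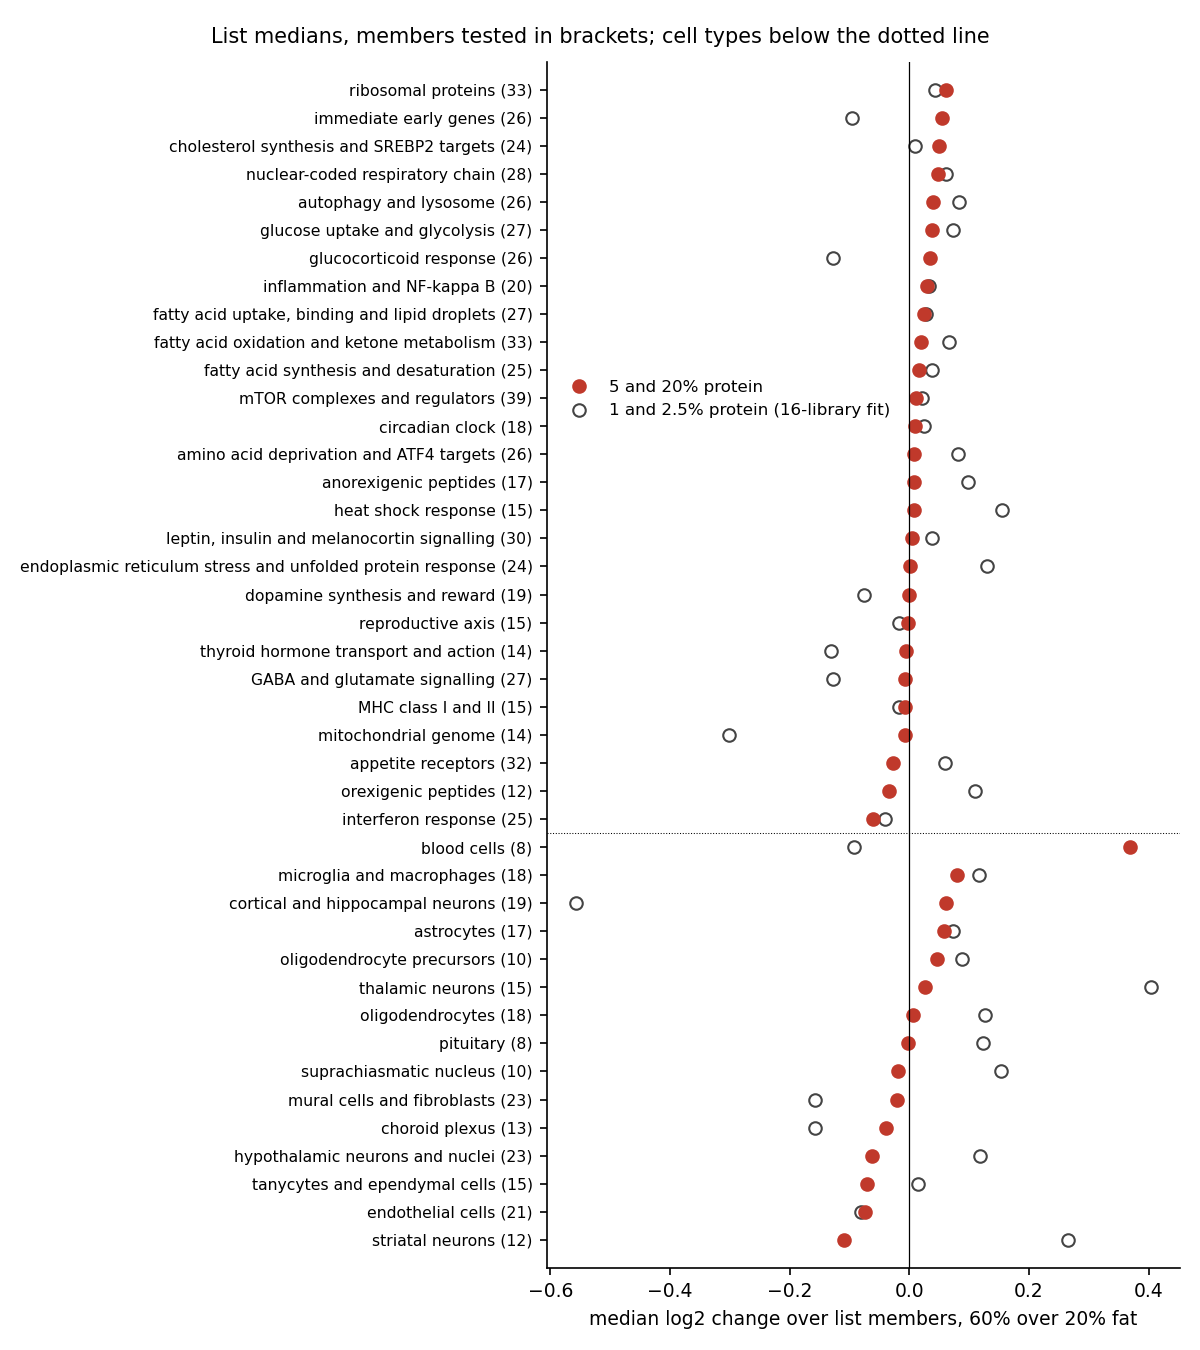
Median log2 change at 60% over 20% fat (x axis) for each gene list (y axis, members tested in brackets), at 5 and 20% protein (red) and at 1 and 2.5% protein (open). At 5 and 20% protein the medians run from -0.11 to 0.08 apart from blood cells at 0.37, while at 1 and 2.5% protein cortical and hippocampal neurons reach -0.56 and thalamic neurons 0.40.

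The genes with the smallest p are given as values that did not pass. Among positive estimates, Bub1b, a mitotic checkpoint kinase, had 3.85, 3.68, 4.46 and 3.61 CPM at 60% fat and 2.51, 3.17, 2.07 and 2.69 CPM at 20% fat, with log2 0.58 ± 0.15 (unadjusted p = 0.0025). Others were the Wnt ligand gene Wnt11 (0.52), the centriole gene Poc1a (0.36), the zinc finger genes Zfp365 (0.16) and Zfp637 (0.17), the kinase subunit gene Pik3cg (0.42), Lgi4 (0.19), the cell cycle gene Fzr1 (0.15) and the Notch target Hes1 (0.26). Among negative estimates, the histone methyltransferase gene Suv420h2 had 30.3, 32.7, 32.6 and 35.8 CPM at 60% fat and 40.8, 36.5, 40.7 and 38.1 CPM at 20% fat, with log2 -0.25 ± 0.06 (unadjusted p = 0.0021). After it came Meg3 (-1.21), the MHC class I gene H2-Q4 (-0.49), the lipid transporter gene Mfsd2b (-0.44), the T-box gene Tbx2 (-0.37), the Y-linked translation factor gene Eif2s3y (-0.33), the muscle myosin gene Myh4 (-0.81), the ubiquitin ligase gene Traip (-0.29), Zfp446 (-0.21) and Tek (-0.28). All had an edgeR adjusted p of 1.0.

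The same fat contrast at 1 and 2.5% protein, taken in a fit of all 16 libraries, also called 0 genes (0%) but had 2092 of 16646 genes (12.6%) at an unadjusted p under 0.05. In that same fit the contrast at 5 and 20% protein had 258 (1.55%). The test of the difference between the fat effects at the upper and lower protein levels called 0 genes (0%), with 632 at an unadjusted p under 0.05, so a difference was not shown for any gene. Npy had a fat effect of -0.67 ± 0.15 (SE) at 1 and 2.5% protein (adjusted p = 0.24), against 0.02 at 5 and 20% protein, and the difference of 0.70 ± 0.22 had an adjusted p of 0.98. Pomc had 0.42 ± 0.13 at 1 and 2.5% protein (adjusted p = 0.29), and its difference of -0.54 ± 0.18 had an adjusted p of 0.98. Some list medians of cell type markers, whose members did not pass the test either, were farther from 0 at the lower protein levels, at -0.56 for cortical and hippocampal neurons, 0.40 for thalamic neurons and 0.26 for striatal neurons, against 0.06, 0.03 and -0.11 at 5 and 20% protein. Their part in the larger number of small p-values at 1 and 2.5% protein was not tested. Leaving out replicate 1 of 20% fat with 1% protein raised the calls at 1 and 2.5% protein to 358 higher and 613 lower, and leaving out replicate 1 of 20% fat with 2.5% protein gave 3 higher and 60 lower.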

How the data were processed

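The authors deposited raw counts per gene for 47069 genes in 16 libraries, not normalised, with a counted length per gene. Per the submitters' processing notes the tools were HISAT2 2.1.0, featureCounts, Subread 5.0, SAMtools 1.2, FastQC and edgeR, on mouse build GRCm38. No source used here states the strand setting, so overlapping and antisense genes cannot be told apart. The counted length equalled the whole gene span, introns included, for 76.5% of the genes tested (GENCODE M21).

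From these counts, the 8 libraries were filtered with edgeR's filterByExpr (minimum count 10), scaled by TMM and fitted with the quasi-likelihood test (version 4.0.16, under R 4.3.3) on fat and protein level. Adjusted p-values are Benjamini-Hochberg values over 16325 genes. Effects within a protein level and the interaction came from a model of 4 diets, and those at 1 and 2.5% protein from a model of 8 diets over 16646 genes. Intervals are 95% intervals from the fitted standard errors. SDs and statements of overlap between fat groups take both protein levels together, unless a protein level is named. Alternatives were median-ratio scaling, DESeq2 1.42.0, limma-voom 3.58.1, other filters, a replicate block, removal of a gene length trend, 1 surrogate variable (sva 3.50.0), all 16 libraries and leaving out each library. The steps were tested on simulated counts.

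Genes were named by a rule: with fewer than 5 calls at a mean of at least 1 CPM in a direction, the 10 smallest unadjusted p in that direction, up to 4 members per list with an unadjusted p under 0.05, and a set of 25 appetite, lipid and glial genes whatever their values. Predicted genes lacking a symbol of their own entered the counts only. The comparison, the lists and the rule were chosen with earlier results of these data known. Some genes that the rule selects are not reported here.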

Additional observations from a re-analysis of the deposited data

Results flagged for a closer look

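Of 158 sets of 4 libraries screened with Dixon's criterion, 8 held a library apart from the other 3 (5.06%). Chance alone flags about 1 in 20 where the values of a set come from a single population. Each set here mixed both protein levels and the sets share libraries, so that rate is a rough guide only. At 60% fat, Hcrt was low in replicate 1 of 20% protein (115 CPM, the others 127 to 129 CPM) and Plin2 was low in replicate 2 of 5% protein (10.3 CPM, the others 12.2 to 12.4 CPM). Rnf181 stood apart at 60% fat only because of 1 count in replicate 2 of 5% protein (0.0549 CPM, the others 0). Also at 60% fat, the summed level of suprachiasmatic markers was low in replicate 1 of 5% protein (250.3 CPM, the others 336 to 349 CPM), and that of mural cell and fibroblast markers was high in replicate 2 of 5% protein (1919 CPM, the others 1667 to 1685 CPM). At 20% fat, Aqp1 was low in replicate 1 of 20% protein (0.599 CPM, the others 1.02 to 1.09 CPM). Total counts were highest in replicate 2 of 60% fat with 5% protein (18428442) and lowest in replicate 2 of 20% fat with 5% protein (17731242), each apart from the other 3 of its fat level.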

How the results depend on the processing

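The number of genes called lower at 60% fat at 5 and 20% protein was 1 and became 0 with all 16 libraries in the fit, with a filter on a mean of at least 1 CPM (which removes Rnf181), with the replicate block, with limma-voom and with DESeq2. Under the replicate block the adjusted p of Rnf181 was 0.053. Over all genes, the correlation of same-numbered deviations between diets ran from -0.149 to 0.127. Such values over all genes cannot show whether same-numbered libraries share a batch that acts on some genes. No gene was called higher under these alternatives. DESeq2 gave 1 gene lower for the interaction and 3 lower at 20% protein, and without a count filter the contrast at 1 and 2.5% protein gave 49 higher and 110 lower. Leaving out each library in turn gave 0 to 1 higher and 0 to 2 lower at 5 and 20% protein, 0 to 1 higher and 0 to 1 lower for the interaction, 0 to 1 higher and 0 to 3 lower at 5% protein, and 0 to 1 higher and 0 to 2 lower at 20% protein. It gave 0 to 358 higher and 0 to 613 lower at 1 and 2.5% protein, and 0 to 6 higher and 0 lower for the difference between protein ranges, where the 6 rested on leaving out replicate 1 of 20% fat with 2.5% protein. The extra calls at 5 and 20% protein were Ppp1ca higher without replicate 1 of 20% fat with 5% protein, Uqcrc1 lower without replicate 2 of that diet, and a predicted gene higher without replicate 1 of 20% fat with 20% protein. The cause was not tested. Low counts limit genes under 1 CPM, and with 2 libraries per diet the fits within a protein level borrow their spread from all 4 diets.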
